A study of Mus musculus with 8 samples.

Results

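Homing and adhesion receptors are the surface proteins by which blood stem and progenitor cells reach, hold and leave their places in the bone marrow. The set was chosen by gene symbol and held 10 genes of the 20696 in either deposited table: the integrin subunit genes Itgal, Itgb2, Itga6, Itga4 and Itgb1, the chemokine receptor genes Cxcr4 and Ccr2, and the adhesion or recognition genes Selplg, Cd44 and Cd47. All 10 were present in both tables. RNA was measured by poly(A) sequencing of paired 50 bp reads in 8 libraries of flow-sorted mouse bone marrow cells, 2 libraries in each of 4 groups. Long-term hematopoietic stem cells (LT-HSC) and multipotent progenitors (MPP) were each taken from a Tet1 knockout (KO) and a wild-type (WT) background, which gives the groups LT-HSC KO and LT-HSC WT and the groups MPP KO and MPP WT. In every group the strain was given as CD57BL/6, the mice were 6 months old, and the cells were sorted 20 weeks after the mice had received WT or Tet1 KO bone marrow. The TET1 enzyme oxidizes methylated cytosine in DNA. Each library came from 10000 LT-HSC or 100000 MPP. The labels do not give the part of Tet1 that was removed, the conditioning of the recipients, the cells they still had, or whether the 2 libraries of a group came from separate animals. The p-values below therefore measure the spread between these libraries alone, and that spread may be technical.

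A circulating stem cell first rolls on vessel walls, where selectins on the endothelium hold glycans carried by PSGL-1 (the product of Selplg) and CD44. Chemokine receptors then sense ligands such as CXCL12, for which CXCR4 is the receptor, and signal through G proteins to switch integrins to their high-affinity form. Integrins work as pairs of an alpha and a beta chain. Itgal and Itgb2 encode the 2 chains of LFA-1, which binds ICAM proteins. Itga4 with Itgb1 forms VLA-4, a receptor of VCAM-1 and fibronectin, and Itga6 with Itgb1 forms a laminin receptor. CCR2, the receptor of CCL2, draws monocytes and some progenitors out of the marrow, and CD47 is the signal that keeps macrophages, through SIRPA, from engulfing a cell.

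The 4 LT-HSC libraries held 4976459 to 5479731 counts and the 4 MPP libraries 11928659 to 12504581, so that a gene with no read could still reach 0.547 to 0.603 CPM (counts scaled to the library total) in LT-HSC and 0.24 to 0.251 CPM in MPP, taking 3 counts as the floor. Such limits cover counting error only. Tet1 itself was counted 336 and 379 times in the LT-HSC KO libraries, against 332 and 428 times in LT-HSC WT; the MPP KO libraries held 765 and 855 reads of it, against 1207 and 1323 reads in MPP WT, so its count did not separate the genotypes in LT-HSC. The 4 Y-linked genes checked summed to 12.3 and 14.4 CPM in LT-HSC KO against 143 and 177 CPM in LT-HSC WT, and to 2.88 and 5.56 CPM in MPP KO against 166 and 174 CPM in MPP WT, and this difference cannot be told apart from genotype. The LT-HSC KO libraries also stood apart in reads over long genes that were silent in the WT libraries of the other population: the median was 0.352 and 0.309 counts per kb of gene in LT-HSC KO, against 0.0221 and 0.0273 in LT-HSC WT and 0.0177 to 0.0322 in the MPP libraries. These are called background reads here. Satellite gene models took 7.68% and 9.87% of all reads in the LT-HSC KO libraries against 0.181% and 0.213% in the LT-HSC WT libraries, and the library totals behind the printed CPM include them. Summed erythroid markers were 5550 to 5710 CPM in LT-HSC KO against 1400 to 1430 CPM in LT-HSC WT, and 1360 to 1390 CPM in MPP KO against 968 to 974 CPM in MPP WT. Stromal and endothelial markers summed to 591 to 784 CPM in LT-HSC KO against 146 to 150 CPM in LT-HSC WT, and to 259 to 266 CPM in MPP KO against 285 to 290 CPM in MPP WT. Granulocyte and monocyte markers summed to 163 to 210 CPM in LT-HSC KO against 188 to 272 CPM in LT-HSC WT, and to 2320 to 2370 CPM in MPP KO against 1410 to 1460 CPM in MPP WT. Lyz2, a gene of that list, was at 105 and 60.7 CPM in LT-HSC KO against 219 and 126 CPM in LT-HSC WT. Of 13 genes of that list tested in LT-HSC, 8 were called higher and 1 lower, Lyz2. Of all genes tested, 22.5% were called higher and 10.9% lower. After background reads were subtracted, 5 of 11 were higher and 0 lower, beside 9.16% higher and 6.23% lower of all genes. Lyz2 was then not called (edgeR adjusted p = 0.129). Stem and progenitor markers, which include Kit and Procr, summed to 2150 to 2200 CPM in LT-HSC KO against 3040 to 3160 CPM in LT-HSC WT, and all 13 of them were detected in every library. Slamf1, a stem cell marker, was at 38.8 to 72.5 CPM in the LT-HSC libraries against 3.68 to 9.64 CPM in the MPP libraries, and Flt3, a progenitor marker, at 23.2 to 42.6 CPM in LT-HSC against 332 to 368 CPM in MPP. The part of the other cell types' markers in the receptor differences below was not tested. In such bulk samples fewer cells of a type and less RNA per cell cannot be told apart.

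The promoters of 3 genes are shown first because Tet1 acts on methylated cytosine, which in mammalian DNA lies mostly before guanine. RefSeq promoter windows were matched for 6 of the 10 genes, and the 250 bases before the gene start are given 5′ to 3′ on the gene's strand, with each CG pair in capitals (the motif CG reads the same on both strands). They belong to Ccr2, which had the largest KO difference of the receptor genes in MPP, to Cxcr4, the receptor of CXCL12, and to Itgb1, the shared integrin beta chain.
Ccr2 (GRCm38.p6, chr9:124101933-124102182, plus strand): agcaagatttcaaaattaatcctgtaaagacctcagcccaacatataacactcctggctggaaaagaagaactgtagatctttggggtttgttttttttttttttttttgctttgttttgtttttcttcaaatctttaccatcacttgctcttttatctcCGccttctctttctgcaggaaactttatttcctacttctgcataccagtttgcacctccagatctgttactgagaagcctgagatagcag
Cxcr4 (GRCm38.p6, chr1:128592300-128592549, minus strand): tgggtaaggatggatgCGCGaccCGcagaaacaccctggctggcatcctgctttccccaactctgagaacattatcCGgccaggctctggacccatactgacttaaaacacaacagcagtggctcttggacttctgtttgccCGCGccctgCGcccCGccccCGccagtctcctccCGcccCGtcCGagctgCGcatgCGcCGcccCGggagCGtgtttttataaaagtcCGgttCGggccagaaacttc
Itgb1 (GRCm38.p6, chr8:128685404-128685653, plus strand): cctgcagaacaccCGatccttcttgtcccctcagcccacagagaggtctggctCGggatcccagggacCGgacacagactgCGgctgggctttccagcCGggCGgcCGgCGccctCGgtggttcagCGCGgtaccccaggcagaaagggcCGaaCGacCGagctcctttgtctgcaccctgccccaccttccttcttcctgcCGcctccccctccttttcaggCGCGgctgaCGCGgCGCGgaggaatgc
The Ccr2 window held 1 CG pair, and 92.1% of 32851 promoter windows of this length held at least as many. Cxcr4 had 19 and Itgb1 had 21, reached by 19.7% and 16.3% of windows. The median window held 6. The windows of Cd44, Cd47 and Itga4 held 5, 30 and 6 CG pairs. Methylation was not measured in these libraries, and the counts are a description of the reference sequence only.

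The receptor genes that differed between KO and WT were not all the same in LT-HSC and MPP, which were tested separately. In LT-HSC, KO libraries had less RNA for both LFA-1 chains, for Itga6, for Cxcr4 and for Selplg than WT libraries. In MPP, KO libraries had less Ccr2 and Itga6 RNA and slightly more Itgb2 RNA than WT libraries. Cxcr4 differed there by a log2 fold change of 0.00 (SE 0.08). In the interaction test given below, which compares the KO differences of the populations, Cxcr4 missed the threshold (edgeR adjusted p = 0.0545). Fold changes are log2 of KO over WT from edgeR, each with its standard error (SE), and a gene is called changed at an adjusted p under 0.05 in edgeR's quasi-likelihood test, with Benjamini-Hochberg adjustment over all genes tested. In LT-HSC, 9 receptor genes had enough counts to be tested; 5 were called lower, 0 higher and 4 were not called, where 10.9% of all 15684 genes tested were called lower and 22.5% higher. Their median log2 fold change was -0.57, against 0.03 for all genes tested. At an unadjusted p under 0.05, edgeR put 1 receptor gene higher and 5 lower, and DESeq2 at an adjusted p under 0.05 called 0 higher and 4 lower. The shares of all genes in these settings are not given here, so both counts lack a baseline. With background reads subtracted, edgeR called 0 higher and 3 lower, Itgal, Itgb2 and Itga6, where 9.16% of all 13903 genes tested were called higher and 6.23% lower. In MPP, all 10 were tested; 1 was called higher, 2 lower and 7 were not called, where 4.74% of all 14902 genes tested were called higher and 2.46% lower, and the median was -0.04 against -0.01 for all genes.

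**Figure D1:**
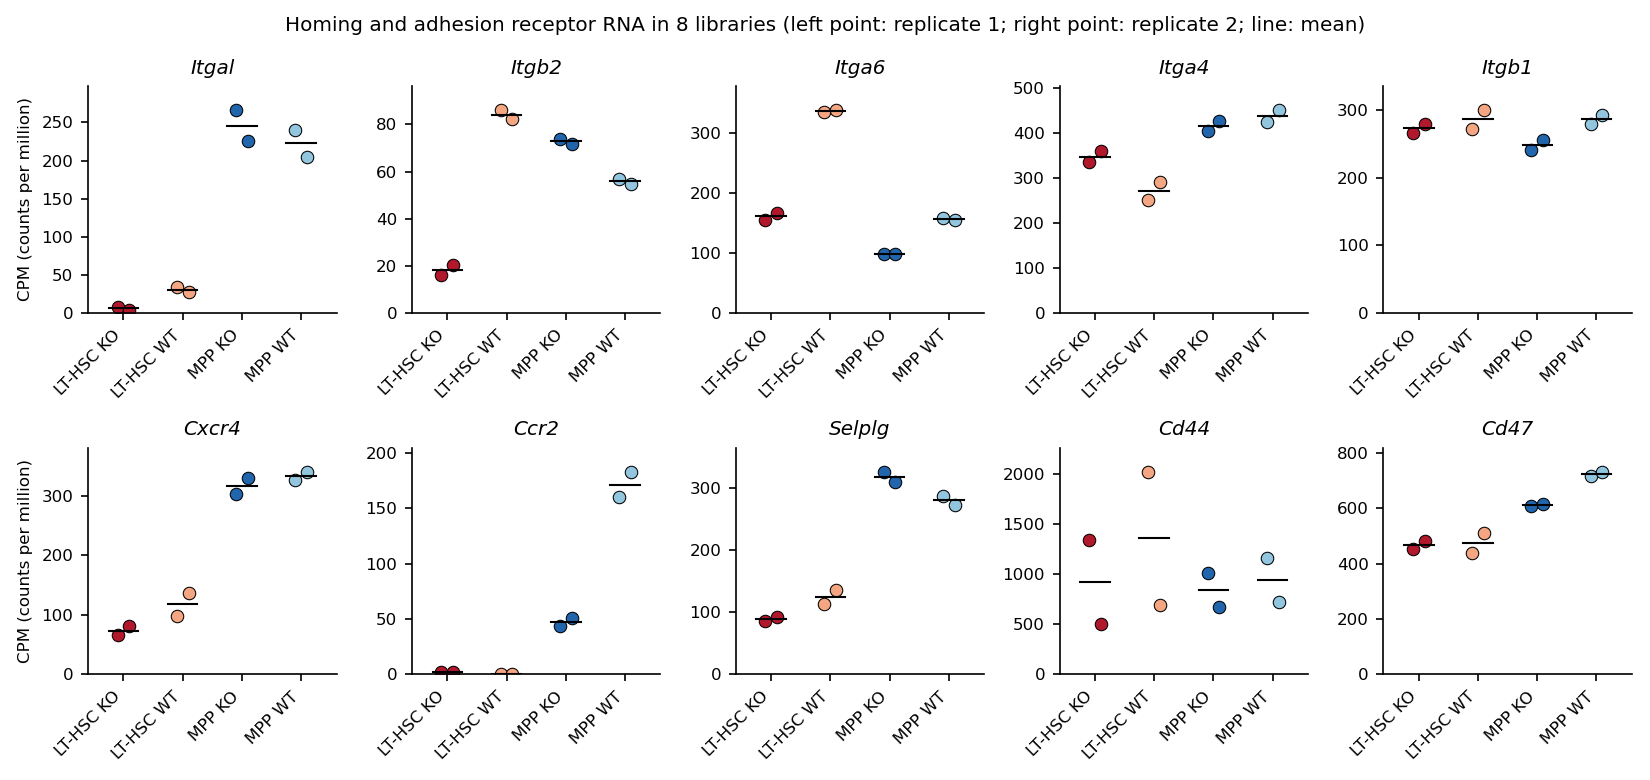
RNA level of each receptor gene in CPM (vertical axes, each from 0) in the 2 libraries of each group, LT-HSC left of MPP and KO left of WT within each; points are libraries, replicate 1 on the left and replicate 2 on the right, and lines are group means. Itgal, Itgb2 and Itga6 lie lower in both LT-HSC KO libraries than in either LT-HSC WT library, Ccr2 lies lower in both MPP KO libraries than in either MPP WT library, and the 2 Cd44 points of every group lie far apart.

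Both chains of LFA-1 fell in LT-HSC KO. Itgal (ENSMUSG00000030830, chromosome 7, 134439774 to 134478651 on mm9, plus strand) encodes the alpha chain, CD11a. It had 8.03 and 3.76 CPM in LT-HSC KO, from 43 and 19 counts, against 33.6 and 27.7 CPM in LT-HSC WT, from 184 and 138 counts. Both KO libraries lay below both WT libraries, 5.17-fold lower in the fit (log2 fold change -2.37, SE 0.38, edgeR adjusted p = 0.00245). Background reads expected from the length of the gene came to 13.7 and 12 of its counts in LT-HSC KO, or 31.8% and 63.2%, against 0.467% and 0.768% in LT-HSC WT. With background counts subtracted in every library the log2 fold change was -2.96 (adjusted p = 0.0153). It was -3.06 without LT-HSC KO replicate 1, the higher of the KO libraries (adjusted p = 0.00472), and -1.90 without LT-HSC KO replicate 2 (adjusted p = 0.00736).

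Itgb2 (ENSMUSG00000000290, chromosome 10, 76992997 to 77028453 on mm9, plus strand) encodes the beta chain, CD18, which also pairs with other leukocyte alpha chains. It had 16.2 and 20.4 CPM in LT-HSC KO against 86 and 82.2 CPM in LT-HSC WT, with no overlap between the groups. The fitted level was 4.61-fold lower (log2 fold change -2.21, SE 0.20, edgeR adjusted p = 0.000251), and background reads made up 14.3% and 10.6% of the KO counts. In MPP the order was turned round: Itgb2 had 73.9 and 71.7 CPM in MPP KO against 56.8 and 54.9 CPM in MPP WT, again without overlap (log2 fold change 0.46, SE 0.07, adjusted p = 0.0286). Itgal had 266 and 226 CPM in MPP KO against 240 and 205 CPM in MPP WT, overlapping groups, and the log2 fold change was 0.23 (SE 0.12, adjusted p = 0.293). Lymphoid markers summed to 85.9 to 91.3 CPM in LT-HSC KO against 111 to 116 CPM in LT-HSC WT, and to 597 to 603 CPM in MPP KO against 522 CPM in both MPP WT libraries. Nkg7, a lymphoid gene of that list, was at 7.09 and 7.51 CPM in LT-HSC KO against 60.8 and 62.5 CPM in LT-HSC WT. Of 10 lymphoid genes tested there, 5 were called higher and 3 lower, beside 22.5% higher and 10.9% lower of all genes. After background reads were subtracted, 0 of 9 were higher and 4 lower, beside 9.16% higher and 6.23% lower of all genes. The part of lymphoid markers in the LFA-1 genes was not tested. The LT-HSC calls of Itgal and Itgb2 passed the threshold in all 12 alternative settings run, whereas the MPP call of Itgb2 passed in 6 of 14 and ended without MPP KO replicate 1 (adjusted p = 0.135) or 2 (0.132), without MPP WT replicate 1 (0.326) or 2 (0.316), with no filter on low counts (0.0506) and with all 8 libraries in one fit (0.103). The authors' deposited table gives log2 fold changes of -2.4 for Itgal and -2.2 for Itgb2 in LT-HSC, with false discovery rates of 2.95e-09 and 1.73e-09, and 0.44 for Itgb2 in MPP with 0.342.

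Itga6 was the 1 receptor gene called lower in both populations. Itga6 (ENSMUSG00000027111, chromosome 2, 71583673 to 71696473 on mm9, plus strand) encodes CD49f, the alpha chain of a laminin receptor and a marker used to enrich stem cells. It had 155 and 166 CPM in LT-HSC KO against 335 and 337 CPM in LT-HSC WT, a gap far wider than the spread within either group. The log2 fold change was -1.07 (SE 0.15, edgeR adjusted p = 0.00164), 2.1-fold lower, and it passed the threshold in all 12 alternatives. The authors' deposited false discovery rates for Itga6 are 0.00279 in LT-HSC and 0.0946 in MPP. In MPP it had 98.6 and 97.3 CPM in MPP KO against 157 and 155 CPM in MPP WT, 1.51-fold lower (log2 fold change -0.59, SE 0.06, adjusted p = 0.0125). That call ended when any 1 MPP library was left out: the adjusted p was 0.0757 without MPP KO replicate 1, 0.085 without MPP KO replicate 2, 0.304 without MPP WT replicate 1 and 0.286 without MPP WT replicate 2, while the log2 fold change stayed between -0.60 and -0.59.

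The 2 chains of VLA-4 were not called in either population. Itga4 (ENSMUSG00000027009, chromosome 2, 79095583 to 79173280 on mm9, plus strand), the alpha chain CD49d, had 335 and 359 CPM in LT-HSC KO against 250 and 291 CPM in LT-HSC WT. Both KO libraries were the higher ones, and the log2 fold change was 0.36 (SE 0.15, edgeR adjusted p = 0.103). The call depended on the fit and on the scaling: Itga4 was called higher with all 8 libraries in one fit, at nearly the same value (0.35, adjusted p = 0.0261), and with normalization factors from abundant genes (0.54, adjusted p = 0.027), a scaling that moved the median of all genes to 0.21. In MPP its libraries overlapped, at 403 and 427 CPM in MPP KO against 423 and 450 CPM in MPP WT (log2 fold change 0.01, SE 0.08, adjusted p = 0.979). Itgb1 (ENSMUSG00000025809, chromosome 8, 131209554 to 131257100 on mm9, plus strand), the beta chain CD29 shared by Itga4, Itga6 and other alpha chains, had 267 and 280 CPM in LT-HSC KO against 273 and 300 CPM in LT-HSC WT, and 241 and 256 CPM in MPP KO against 280 and 293 CPM in MPP WT. The LT-HSC groups overlapped and the MPP KO libraries lay below the MPP WT libraries, with log2 fold changes of -0.07 (SE 0.15, adjusted p = 0.759) and -0.13 (SE 0.07, adjusted p = 0.325). The LT-HSC value of Itgb1 turned to 0.10 with background reads subtracted and to 0.11 with factors from abundant genes.

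**Figure D2:**
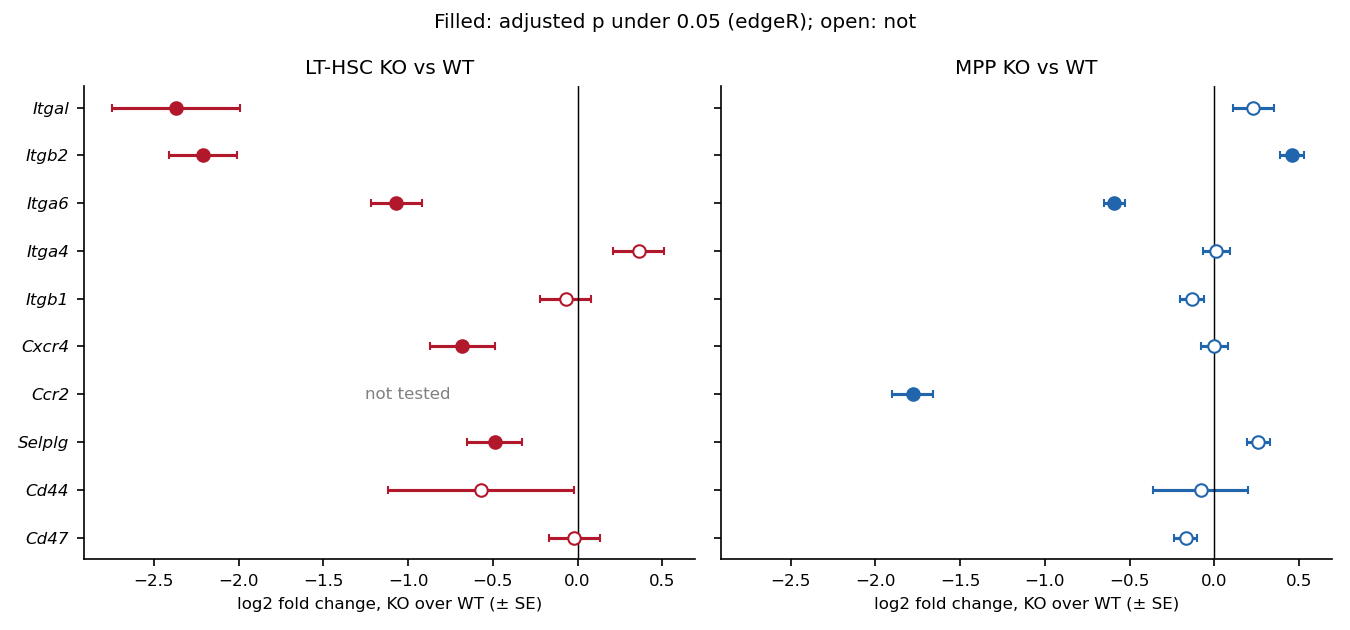
Log2 fold change of KO over WT for the 10 receptor genes (horizontal axes, same scale in both panels) in LT-HSC on the left and MPP on the right; points are edgeR estimates, bars are ± 1 SE, and filled points are called at an adjusted p under 0.05. In LT-HSC 5 filled points lie left of 0, with Itgal at -2.37 and Itgb2 at -2.21, while in MPP Ccr2 at -1.78 lies farthest from 0.

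Among the chemokine receptors, Cxcr4 was lower in LT-HSC KO and Ccr2 was lower in MPP KO. Cxcr4 (ENSMUSG00000045382, chromosome 1, 130484776 to 130488870 on mm9, minus strand) retains stem cells near CXCL12-producing niche cells. It had 65.9 and 81 CPM in LT-HSC KO against 98.5 and 137 CPM in LT-HSC WT. Both KO libraries lay below both WT libraries, but the 2 WT libraries differed more from each other than the nearest pair of KO and WT did (log2 fold change -0.68, SE 0.19, edgeR adjusted p = 0.0237). The call passed in 7 of 12 alternatives; it ended with background reads subtracted (-0.50, adjusted p = 0.124), with factors from abundant genes (-0.50, 0.0959), and without LT-HSC KO replicate 1 (0.233), LT-HSC KO replicate 2 (0.0826) or LT-HSC WT replicate 2 (0.0551). In the authors' deposited table its false discovery rate in LT-HSC is 0.0795. In MPP, Cxcr4 had 302 and 329 CPM in MPP KO against 326 and 340 CPM in MPP WT, and the groups overlapped.

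Ccr2 (ENSMUSG00000049103, chromosome 9, 124016689 to 124028296 on mm9, plus strand) had 43.7 and 50.9 CPM in MPP KO against 160 and 183 CPM in MPP WT. The groups lay far apart, and the fitted level was 3.44-fold lower (log2 fold change -1.78, SE 0.12, edgeR adjusted p = 0.00403). Without MPP WT replicate 1 or 2 its adjusted p was 0.296 or 0.281, and edgeR then called 0 genes in all, with 2119 and 2220 at an unadjusted p under 0.05. DESeq2 called 265 and 263 genes without the same libraries, and Ccr2 was the receptor gene among them each time. In LT-HSC, Ccr2 was near the limit of detection, with 11 and 9 reads in LT-HSC KO and 1 and 0 in LT-HSC WT. These were too few to pass the count filter used here. The ratio of the summed counts, 20 against 1, was 20 with a 95% exact binomial interval of 3.2 to 830. The authors' deposited log2 fold changes for Ccr2 are 3.76 in LT-HSC and -1.8 in MPP, with false discovery rates of 0.00126 and 2.96e-11. Background reads account for 37.2% and 39.8% of the KO counts by the length of the gene. Of 17 granulocyte and monocyte marker genes, 16 were detected in both LT-HSC KO libraries and 10 and 11 in the LT-HSC WT libraries. Detection means any count, which background reads can supply. The summed level of that list overlapped, at 163 to 210 CPM in LT-HSC KO against 188 to 272 CPM in LT-HSC WT. Of its 13 genes tested, 8 were called higher and 1 lower, beside 22.5% higher and 10.9% lower of all genes. Ngp, S100a8 and Cx3cr1 had 0 counts in LT-HSC WT and entered the test through their KO reads. After background reads were subtracted, 5 of 11 were higher and 0 lower, beside 9.16% higher and 6.23% lower of all genes. The part of background reads or of other cell types in the Ccr2 count was not tested.

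**Figure D3:**
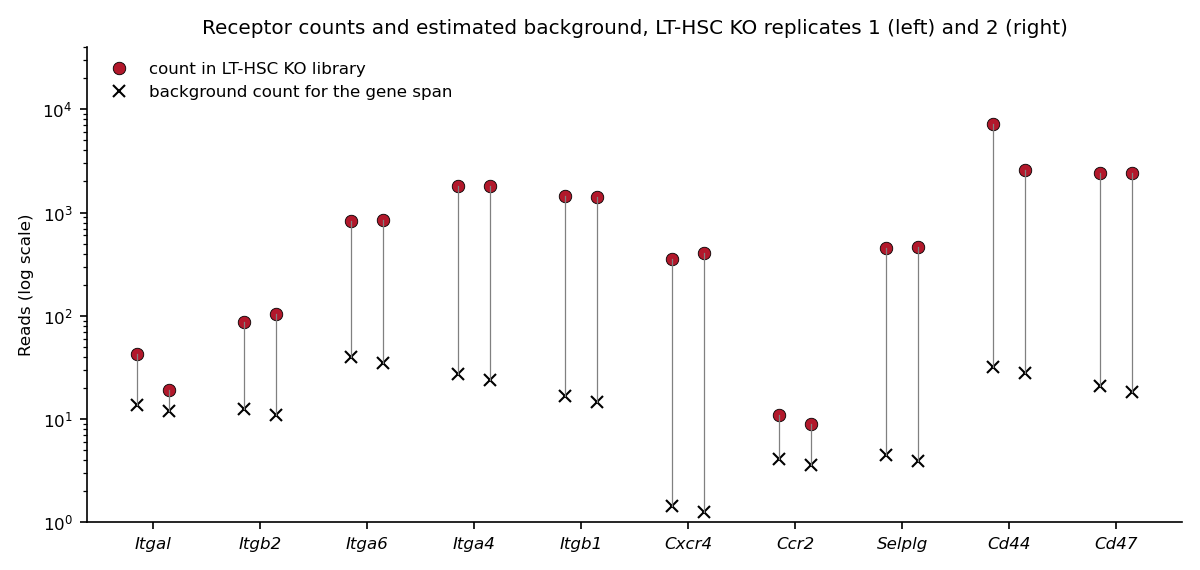
Read count of each receptor gene (circles) and the background count expected from its gene length (crosses) in LT-HSC KO replicate 1, left of each pair, and replicate 2, right; the vertical axis is a log scale. The crosses come close to the circles for Itgal and Ccr2 and lie more than a decade below them for Itga6, Itga4, Itgb1, Cxcr4, Selplg, Cd44 and Cd47.

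Selplg (ENSMUSG00000048163, chromosome 5, 114267807 to 114280510 on mm9, minus strand) was lower in LT-HSC KO. It had 85.5 and 92.5 CPM in LT-HSC KO against 114 and 136 CPM in LT-HSC WT, without overlap (log2 fold change -0.49, SE 0.16, edgeR adjusted p = 0.0432). In MPP it had 326 and 310 CPM in MPP KO against 287 and 273 CPM in MPP WT, also without overlap and in the other direction, but the test was not passed (log2 fold change 0.26, SE 0.07, adjusted p = 0.0891). The authors' deposited false discovery rate for Selplg in LT-HSC is 0.236. The LT-HSC call was the least stable of the 5, passing in 5 of 12 alternatives. It ended in DESeq2 (adjusted p = 0.101), with background reads subtracted (0.213), with factors from abundant genes (0.195), with library size only (0.0531), and without LT-HSC KO replicate 1 (0.297), LT-HSC KO replicate 2 (0.249) or LT-HSC WT replicate 2 (0.104).

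Cd44 (ENSMUSG00000005087, chromosome 2, 102651298 to 102741822 on mm9, minus strand), the receptor of hyaluronan, differed more between replicates than between genotypes. It had 1340 and 506 CPM in LT-HSC KO against 2020 and 693 CPM in LT-HSC WT, and 1010 and 675 CPM in MPP KO against 1160 and 722 CPM in MPP WT. The library numbered 1 was the higher one in all 4 groups, by 2.64-fold in LT-HSC KO, 2.91-fold in LT-HSC WT, 1.5-fold in MPP KO and 1.61-fold in MPP WT. Without regard to the number, the KO difference was not detectable beyond that spread, with log2 fold changes of -0.57 (SE 0.55, edgeR adjusted p = 0.469) in LT-HSC and -0.08 (SE 0.28, adjusted p = 0.894) in MPP. Within each number the KO library was lower than the WT library in both populations. Leaving out 1 library leaves the numbers unequal between the groups, and the value then follows the number: in LT-HSC it was -1.22 without LT-HSC WT replicate 2 (adjusted p = 2.21e-05), -1.48 without LT-HSC KO replicate 1 and 0.45 without LT-HSC WT replicate 1 (adjusted p = 0.172). Of 10448 genes tested in both populations with a mean of at least 10 CPM, 337 differed by more than 1.3-fold between libraries 1 and 2 in the same direction in all 4 groups. The labels do not say what the number stands for.

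**Figure D4:**
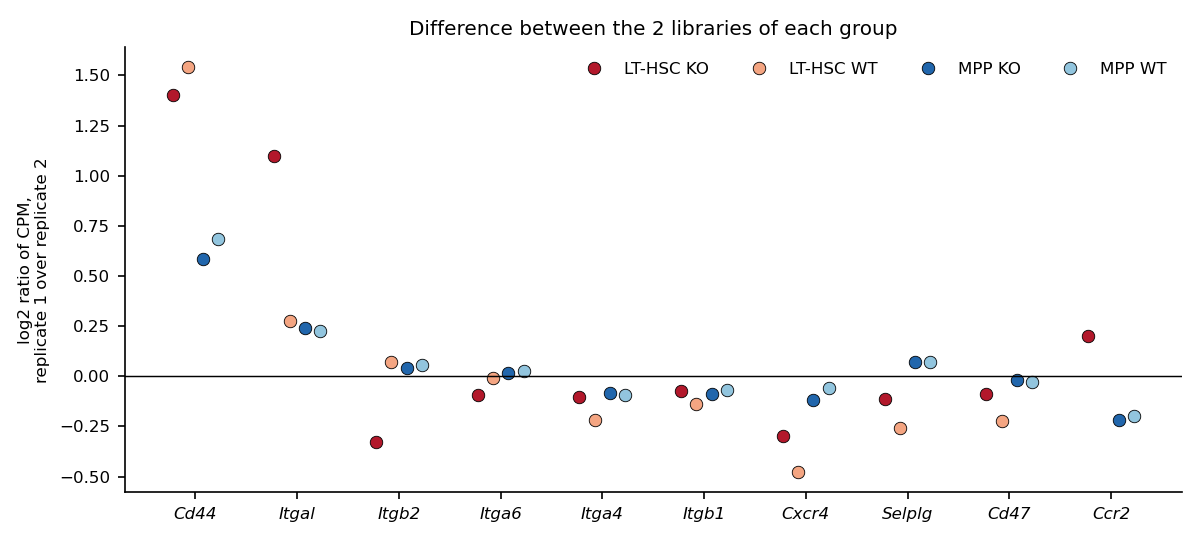
Log2 ratio of CPM in replicate 1 over replicate 2 for each receptor gene in the 4 groups, 1 point per group; Ccr2 has no LT-HSC WT point because 1 of those libraries holds 0 counts. The 4 points of Cd44 lie above 0, from 1.5-fold in MPP KO to 2.91-fold in LT-HSC WT, and the LT-HSC KO point of Itgal is also high, at 2.14-fold.

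Cd47 (ENSMUSG00000055447, chromosome 16, 49855731 to 49915123 on mm9, plus strand) was not called in either population. It had 452 and 480 CPM in LT-HSC KO against 438 and 510 CPM in LT-HSC WT, where the KO libraries lay between the WT libraries (log2 fold change -0.02, SE 0.15, edgeR adjusted p = 0.928). In MPP it had 608 and 616 CPM in MPP KO against 717 and 731 CPM in MPP WT, so that both KO libraries were lower, and the log2 fold change was -0.17 (SE 0.07, adjusted p = 0.192). With background reads subtracted the LT-HSC value of Cd47 was 0.15, and with factors from abundant genes it was 0.16.

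Whether the KO difference itself differed between the populations was tested as an interaction over all 8 libraries. Of all 16551 genes tested, 8.5% were called lower in LT-HSC relative to MPP and 13.6% higher; of the 10 receptor genes, 4 were lower and 1 higher. The 4 lower ones were Itgb2 (difference of log2 fold changes -2.67, SE 0.19, edgeR adjusted p = 0.000371), Itgal (-2.61, SE 0.36, 0.00358), Selplg (-0.75, SE 0.15, 0.0122) and Itga6 (-0.48, SE 0.13, 0.0349). Cxcr4 missed the threshold (-0.68, SE 0.22, adjusted p = 0.0545) and passed it without LT-HSC WT replicate 1 (-0.89, adjusted p = 0.0199). Ccr2 was the 1 higher gene (adjusted p = 0.00214), but with 1 count in LT-HSC WT its fitted difference depends on the prior count and is not a measure of size. Itgb2 and Itgal passed in all 15 alternatives, with -3.27 for Itgal without LT-HSC KO replicate 1. Itga6 passed in 5 of 15: its adjusted p was 0.0837 without LT-HSC KO replicate 1, 0.0509 without LT-HSC KO replicate 2, 0.0538 without LT-HSC WT replicate 1, 0.143 without MPP KO replicate 1, 0.102 without MPP KO replicate 2, 0.129 without MPP WT replicate 1, 0.149 without MPP WT replicate 2, 0.103 with background reads subtracted, 0.101 with factors from abundant genes and 0.07 with library size only. Selplg ended without MPP KO replicate 1 (0.0544) or MPP WT replicate 2 (0.068).

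Most receptors also differed between the populations. In WT, LT-HSC were lower than MPP for 6 receptor genes and higher for 2, where 16.9% of all 14660 genes tested were called lower and 17.4% higher. Itgal was 7.1-fold lower in LT-HSC WT than in MPP WT (log2 fold change -2.83, SE 0.18, edgeR adjusted p = 0.000259), Cxcr4 2.8-fold lower (-1.49, SE 0.16, 0.00161) and Selplg 2.22-fold lower (-1.15, SE 0.12, 0.00163). Ccr2 had 1 count over both LT-HSC WT libraries against 4115 over both MPP WT libraries, a ratio scaled to library size of 1770-fold lower with a 95% interval of 317 to 69900. Itga6 was 2.19-fold higher in LT-HSC WT (1.13, SE 0.12, 0.00159). Smaller differences were found for Itgb2 (0.61, SE 0.13, 0.0168), Itga4 (-0.67, SE 0.12, 0.0103) and Cd47 (-0.59, SE 0.13, 0.0166), and these 3 calls ended without MPP WT replicate 1 (adjusted p = 0.161, 0.0512 and 0.132) or MPP WT replicate 2 (0.187, 0.126 and 0.193). Itgb1 (0.02, SE 0.12, 0.914) and Cd44 (0.58, SE 0.52, 0.42) were not called, though Cd44 passed without LT-HSC WT replicate 2 (1.14, adjusted p = 0.0235) or MPP WT replicate 1 (0.94, 0.0383).

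In KO, 7 receptor genes were lower in LT-HSC than in MPP and 1 was higher, where 23.6% of all 16150 genes tested were called lower and 27.2% higher. Itgb2 stood on the other side here: it was 4.4-fold lower in LT-HSC KO than in MPP KO (log2 fold change -2.14, SE 0.16, edgeR adjusted p = 4.92e-05). Itgal was 45.8-fold lower (-5.52, SE 0.28, 9.48e-06) and -6.17 without LT-HSC KO replicate 1, Ccr2 was 27-fold lower (-4.76, SE 0.22, 7.78e-06), Cxcr4 4.75-fold lower (-2.25, SE 0.14, 2.77e-05) and Selplg 3.95-fold lower (-1.98, SE 0.12, 2.21e-05). Itga6 was higher in LT-HSC KO than in MPP KO (0.57, SE 0.11, 0.00497). The calls of Cd47 (-0.54, SE 0.12, 0.00823) and Itga4 (-0.40, SE 0.12, 0.0253) did not hold: Cd47 ended without LT-HSC KO replicate 1 (0.0545), MPP KO replicate 1 (0.0673) or MPP KO replicate 2 (0.094), and Itga4 ended without LT-HSC KO replicate 1 (0.0972), LT-HSC KO replicate 2 (0.0564), MPP KO replicate 1 (0.139) or MPP KO replicate 2 (0.283). Population coincides with cell number, depth and deposited table in both comparisons, and these cannot be told apart.

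Ordered by group mean, Ccr2 ran MPP WT, MPP KO, LT-HSC KO, LT-HSC WT, with no overlap between neighbours. Selplg, with MPP KO first and LT-HSC KO last, and Itgb2, with LT-HSC WT first and LT-HSC KO last, also had 4 groups apart. For Cxcr4 and Itga4 the first pair, MPP WT and MPP KO, overlapped, and for Itgal the first pair, MPP KO and MPP WT, did. For Itga6 the middle pair, LT-HSC KO and MPP WT, overlapped, and for Cd47 the last pair, LT-HSC WT and LT-HSC KO, did. For Itgb1 only the last pair, LT-HSC KO and MPP KO, lay apart. All neighbouring groups of Cd44 overlapped. The share of all genes with 4 groups apart is not given here, so the order is a description only.

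The ligand genes of these receptors were called in both directions. In LT-HSC, 17 of 28 listed ligand genes were tested; 6 were called higher and 5 lower, beside 22.5% higher and 10.9% lower of all genes. The median log2 fold change was -0.19, the same with genes at 0 counts set to their bound. With background reads subtracted, 4 of 16 were higher and 3 lower, beside 9.16% higher and 6.23% lower of all genes. Genes named after their values were seen were Icam2, a ligand of LFA-1 (-1.10, SE 0.18, edgeR adjusted p = 0.00282), Fn1, which encodes fibronectin (1.34, SE 0.23, 0.00297), and the laminin chain gene Lama1 (3.23, SE 0.45, 0.00152), all called after the subtraction too. Lama4 (1.39, SE 0.39, 0.0258), F11r (-0.75, SE 0.19, 0.0154) and Mif (-0.56, SE 0.18, 0.0395) were not (adjusted p = 0.966, 0.0589 and 0.188). In MPP, 1 of 16 tested was higher and 2 were lower (median -0.13), beside 4.74% higher and 2.46% lower of all genes. F11r was among the lower ones (-0.76, SE 0.14, edgeR adjusted p = 0.0403). Cxcl12, the ligand of CXCR4, had 31 and 44 reads in LT-HSC KO and 0 counts in both LT-HSC WT libraries, at least 25-fold higher against a floor of 3 counts over the group. Has2, a hyaluronan synthase, had 33 counts over the LT-HSC KO libraries and 0 in LT-HSC WT, at least 11-fold higher, and too few to be tested after background reads were subtracted. Selp, which encodes the PSGL-1 ligand P-selectin, was lower in LT-HSC KO, at 36.8 and 42.1 CPM against 124 and 91.2 CPM in LT-HSC WT (log2 fold change -1.46, SE 0.22, edgeR adjusted p = 0.00194). In MPP it had 43.3 and 39.9 CPM in MPP KO against 81.4 and 73.8 CPM in MPP WT (-0.82, SE 0.09, 0.0125), a call that ended without MPP KO replicate 1 (0.0544) or 2 (0.0694). Thbs1, a CD47 ligand, had 53.5 and 49.7 CPM in MPP KO against 21.8 and 19.8 CPM in MPP WT (1.39, SE 0.09, 0.00426), and it was also called higher in LT-HSC KO, at 48.9 and 45.7 CPM against 20.1 and 17.9 CPM in LT-HSC WT (1.31, SE 0.22, 0.00279).

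Some ligands did not pass the test. Icam1, a ligand of LFA-1, had log2 fold changes of -0.26 (SE 0.20, edgeR adjusted p = 0.355) in LT-HSC and -0.19 (SE 0.15, 0.466) in MPP. Vcam1, the ligand of VLA-4, had 0.20 (SE 0.47, 0.772) and 0.56 (SE 0.11, 0.0511), and Sirpa, the partner of CD47, had -0.49 (SE 0.21, 0.103) and 0.17 (SE 0.08, 0.258). Sele, which encodes E-selectin, had 0.42 (SE 0.43, 0.601) in MPP and is not analysed here in LT-HSC, and Ccl2 is not analysed here. Of 12 stromal and endothelial marker genes, 8 were called higher in LT-HSC KO and 0 lower, beside 22.5% higher and 10.9% lower of all genes. All 12 were detected in both LT-HSC KO libraries, against 9 and 11 in the LT-HSC WT libraries. Detection means any count, which background reads can supply. The part of stromal and endothelial cells in the ligand counts was not tested.

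Among 19 other integrin subunit genes tested in LT-HSC, 10 were called higher and 4 lower, beside 22.5% higher and 10.9% lower of all genes. The median log2 fold change was 1.53, the same with genes at 0 counts set to their bound. Some of the higher genes, such as Itgb8 and Itga1, had few or 0 counts in LT-HSC WT and passed the count filter through their KO reads. Such a selection leans toward higher values. After background reads were subtracted, 12 genes were tested, 1 was higher and 2 were lower, and the median was -0.35. Of all genes, 9.16% were then called higher and 6.23% lower. Itga1, a collagen receptor chain, had 61 and 66 reads in LT-HSC KO against 3 and 2 reads in LT-HSC WT (log2 fold change 4.60, SE 0.53, edgeR adjusted p = 0.000646), and Itgb8 had 13 and 15 reads in LT-HSC KO against 0 and 0 reads in LT-HSC WT, at least 9.35-fold higher. Neither had enough counts to be tested after the subtraction. Itga2b, the platelet and stem cell integrin chain CD41, was chosen after its values were seen; it had 216 and 165 CPM in LT-HSC KO against 590 and 464 CPM in LT-HSC WT (-1.47, SE 0.22, 0.002), and -1.30 (adjusted p = 0.0138) after the subtraction. Platelet marker genes, which include Itga2b, summed to 969 to 1010 CPM in LT-HSC KO against 1680 to 1720 CPM in LT-HSC WT. In MPP, 1 of 18 was called higher and 0 lower, beside 4.74% higher and 2.46% lower of all genes. The higher gene was Itgb3, a partner chain of Itga2b (0.39, SE 0.07, edgeR adjusted p = 0.0407). The Itgb3 call ended when either MPP KO library was left out.

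The adaptors and switches that activate integrins gave 7 higher and 7 lower of 27 tested in LT-HSC (median log2 fold change -0.21). Of all genes, 22.5% were called higher and 10.9% lower. After background reads were subtracted, 3 of 24 were higher and 2 lower, beside 9.16% higher and 6.23% lower of all genes. Parva, an adaptor of the integrin-linked kinase, rose (4.41, SE 0.49, edgeR adjusted p = 0.000547), and Fermt1, a kindlin, had 29 reads in LT-HSC KO against 3 reads in LT-HSC WT, a ratio of 9.68 with an interval of 3 to 49.7. The Fermt1 call ended without LT-HSC KO replicate 1 (0.1), LT-HSC KO replicate 2 (0.0851) or LT-HSC WT replicate 2 (0.0681), and it had too few counts to be tested after the subtraction. Rap1b, the small GTPase that drives inside-out activation in leukocytes and platelets and was chosen after its values were seen, had 233 and 254 CPM in LT-HSC KO against 527 and 574 CPM in LT-HSC WT (-1.18, SE 0.15, 0.00112), and -1.01 (adjusted p = 0.00955) after the subtraction. In MPP, 1 of 24 was called higher and 0 lower, beside 4.74% higher and 2.46% lower of all genes. The higher gene was Ptk2b, a focal adhesion kinase relative (0.43, SE 0.08, edgeR adjusted p = 0.0409). The Ptk2b call ended when either MPP KO library was left out.

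Chemokine receptor genes other than Cxcr4 and Ccr2 gave higher calls in LT-HSC KO and mostly lower calls in MPP KO. In LT-HSC, 4 of 7 tested were called higher and 0 lower (median log2 fold change 2.14), beside 22.5% higher and 10.9% lower of all genes. After background reads were subtracted, 2 of 5 were higher (median 0.09), beside 9.16% of all genes. Cx3cr1, a receptor of monocytes, had 14 and 14 reads in LT-HSC KO against 0 and 0 reads in LT-HSC WT, at least 9.35-fold higher; it had too few counts to be tested after the subtraction or without either LT-HSC KO library. In MPP, 6 of 15 were called lower and 1 higher (median -0.61), beside 2.46% lower and 4.74% higher of all genes. Ccr1, a receptor of myeloid cells, had 2 and 2.74 CPM in MPP KO against 13.4 and 16 CPM in MPP WT (-2.55, SE 0.21, edgeR adjusted p = 0.00727), and Cxcr1 had 2 counts in MPP KO against 46 in MPP WT, 22.7-fold lower with an interval of 5.93 to 193. The Cxcr1 call ended without MPP KO replicate 1 (0.083) or 2 (0.0855), whereas Ccr1 passed without either.

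G protein signalling genes downstream of chemokine receptors had 16 of 32 called lower and 2 higher in LT-HSC (median log2 fold change -0.54). Of all genes, 10.9% were called lower and 22.5% higher. With background reads subtracted, 5 were lower and 1 was higher of 32 (median -0.39), beside 6.23% lower and 9.16% higher of all genes. The 2 higher genes were Gnai1, an inhibitory G protein subunit (2.76, SE 0.49, edgeR adjusted p = 0.00354), and Rgs10, a brake on G protein signalling, at 34.2 and 27.7 CPM in LT-HSC KO against 7.3 and 5.83 CPM in LT-HSC WT (2.23, SE 0.30, 0.00129). Gnai1 ended after the subtraction (2.16, adjusted p = 0.0806). In MPP, 1 of 32 was higher and 2 were lower, beside 4.74% higher and 2.46% lower of all genes. Pik3r5, the regulatory subunit of a G protein-activated lipid kinase, had 56.5 and 51.6 CPM in MPP KO against 29 and 28.3 CPM in MPP WT (0.99, SE 0.09, edgeR adjusted p = 0.00771). Adrbk2, a receptor kinase, fell (-0.54, SE 0.07, 0.0211). The Adrbk2 call ended without MPP KO replicate 1 (0.112) or 2 (0.089).

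Enzymes that finish the glycans read by selectins gave 2 higher and 2 lower of 15 in LT-HSC (median log2 fold change -0.10). Of all genes, 22.5% were called higher and 10.9% lower there. In MPP the enzymes gave 3 higher and 0 lower of 14 (median 0.24), beside 4.74% higher and 2.46% lower of all genes. St3gal6, a sialyltransferase for selectin ligands, was higher in both populations. It had 49.7 and 58.1 CPM in LT-HSC KO against 9.67 and 9.04 CPM in LT-HSC WT (2.52, SE 0.23, edgeR adjusted p = 0.000254). In MPP it had 22.2 and 22.7 CPM in MPP KO against 13.4 and 12.6 CPM in MPP WT (0.86, SE 0.10, 0.0157), a call that ended without MPP KO replicate 1 (0.0752) or 2 (0.0855). Fut9, a fucosyltransferase, was higher in LT-HSC KO (3.54, SE 0.40, 0.000583), and Tpst1, which sulfates tyrosines, was higher in MPP KO (0.53, SE 0.09, 0.0323) until MPP KO replicate 1 (0.116) or 2 (0.154) was left out. Without either MPP WT library edgeR called none of the MPP list genes, as for Ccr2 above.

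**Figure D5:**
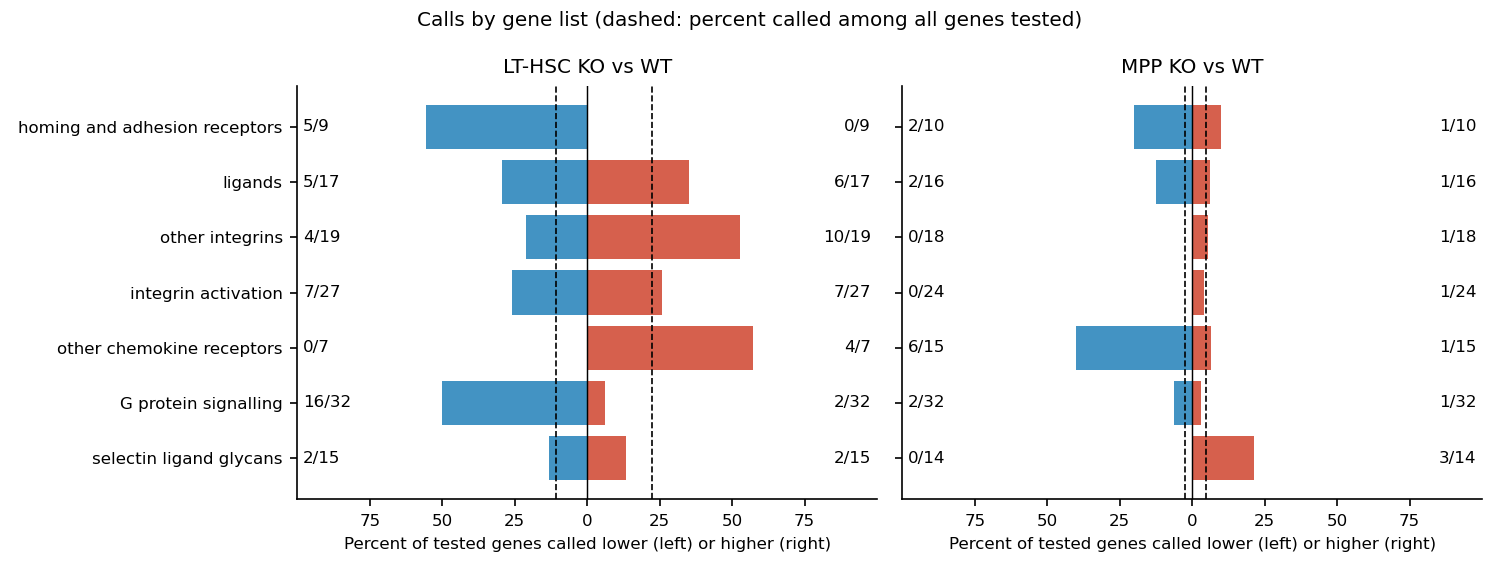
Percent of tested genes called lower (left of 0) and higher (right of 0) in KO relative to WT for the receptor genes and 6 lists of partner genes, in LT-HSC on the left and MPP on the right; dashed lines mark the percent among all genes tested, and the fractions are genes called of genes tested. In LT-HSC the receptors have 5 of 9 lower and 0 higher, G protein signalling genes 16 of 32 lower, and other integrins 10 of 19 higher.

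The genes whose level ran most like the 3 receptor genes of largest LT-HSC change were found by Pearson's r of log2 CPM over the 8 libraries, among the same 10448 genes. Itgal was followed most closely by Pyhin1 (r = 0.995) and Slc36a1 (r = 0.995), Itgb2 by Pim2 (r = 0.986) and 3110001D03Rik (r = 0.985), and Itga6 by Lgals3bp (r = 0.997) and Sfxn3 (r = 0.996). The 8 points fall into 4 groups that share population, depth and table, so these values describe likeness of pattern only.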

How the data were processed

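RNA-seq counts of 8 libraries were used, 2 per group. CASAVA, TopHat and the mm9 build are named in the submitters' processing notes, and the sources used here give no versions, counter or annotation. The authors deposited raw counts per Ensembl gene and library, in 1 table per population. The same tables hold, per the file headers, the authors' log2 fold change, log2 CPM, likelihood ratio score, p-value and false discovery rate. Columns were matched to libraries by genotype and replicate number in their names, and 0 columns were left unmatched.

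Counts were tested with edgeR 4.0.16 in R 4.3.3 (filterByExpr, TMM, quasi-likelihood test, Benjamini-Hochberg adjustment, threshold 0.05) over all genes, per population for KO over WT, over all 8 libraries for the interaction, and within each genotype for LT-HSC over MPP. Printed CPM are counts over the library total, without TMM factors. The background rate is the median count per kb of gene span in 621 genes of at least 100 kb in the lowest 0.25 by level in the WT libraries of the other population; the subtracted counts were rounded and refitted. A gene at 0 counts in a group is given a bound, against 3 counts over the group, and those with 1 to 3 counts as a ratio with a 95% exact binomial interval. Alternatives were RLE size factors, no filter, DESeq2 1.42.0, a replicate block, background subtraction, all 8 libraries in one fit, each library left out and, chosen after seeing the data, factors from genes with a log2 CPM above 6, library size only, and DESeq2 without an MPP WT library. The test was first run on simulated counts.

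The 10 receptors and the lists (ligands, other integrins, integrin activation, other chemokine receptors, G protein signalling, selectin glycans, and erythroid, granulocyte and monocyte, lymphoid, stromal and endothelial, platelet, and stem and progenitor markers) were chosen with earlier results of these data known. Named were all receptors, the 2 called genes of largest change per partner list and comparison, the direct ligands, and the 2 genes most like each of 3 receptors; Rap1b, Itga2b, further ligands and the genes near Ccr2 were added after their values were seen. Some genes that met these rules are not reported here. Promoters are from RefSeq (GRCm38.p6) and no coordinate was converted between builds. Libraries numbered 1 and 2 deviated together between groups (r = 0.587 to 0.813 over 10448 genes), but with 2 per group and no label for the number they were not treated as pairs.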

Additional observations from a re-analysis of the deposited data

Results flagged for a closer look

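The KO difference of 5 receptor genes differed between LT-HSC and MPP in edgeR's interaction test, which set them apart for a closer look. The values are the log2 fold change of KO over WT in LT-HSC minus that in MPP. For Itgb2 the difference was -2.67 (adjusted p = 0.000371), with log2 fold changes of -2.21 in LT-HSC and 0.46 in MPP, each called. For Itgal it was -2.61 (adjusted p = 0.00358), from -2.37 in LT-HSC and 0.23 in MPP, where only the LT-HSC value was called. For Selplg it was -0.75 (adjusted p = 0.0122), from -0.49 and 0.26. For Itga6 it was -0.48 (adjusted p = 0.0349), from -1.07 and -0.59, the same direction in both. For Ccr2 the fitted difference was 5.9 (adjusted p = 0.00214); it rests on 20 counts in LT-HSC KO against 1 count in LT-HSC WT and depends on the prior count. It was 8.87 without LT-HSC WT replicate 1 and 5.03 without LT-HSC WT replicate 2, and the direction was higher in both.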

How the results depend on the processing

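Of the receptor values, Itgal, Itgb2 and Itga6 in LT-HSC kept their direction and their side of the threshold in all 12 alternatives. With background reads subtracted, 3 receptor genes and 2140 genes in all were called in LT-HSC, against 5 and 5246 otherwise, 2139 in the interaction and 5434 between KO LT-HSC and KO MPP. Without 1 library, receptor calls were 3 to 6 in LT-HSC, 0 to 1 in MPP, 3 to 5 in the interaction, 5 to 9 between the WT and 6 to 7 between the KO populations, and calls over all genes were 2325 to 6756 in LT-HSC, 0 to 268 in MPP, 1132 to 4237 in the interaction, 2464 to 7069 between the WT populations and 5370 to 6542 between the KO populations. DESeq2 without MPP WT replicate 1 or 2 called 1 receptor gene and 265 or 263 genes in all; the cause of edgeR's loss of calls was not tested. No filter on low counts gave 575 MPP calls and all 8 libraries in one fit gave 500, against 1073.

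With the replicate number as a block, edgeR called 8824 genes in LT-HSC, 7234 genes and 8 receptor genes in MPP, 6903 in the interaction and 7819 between the WT populations. The number is not known to pair the samples. Under the block Cd44 was called in LT-HSC (-0.53, adjusted p = 2.17e-07) and MPP (-0.08, 0.00152), and Itga4 in LT-HSC (0.36, 5.94e-05).

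Itgb1, Cd47, Cd44 and Itga4 changed sign under some settings, in comparisons where they were not called; Cxcr4 in MPP, at 0.00, ran from -0.08 to 0.06. With background reads subtracted, Itgb1 was 0.10 and Cd47 0.15 in LT-HSC, and Cd44 and Itgb1 were 0.18 and 0.18 between the KO populations. With factors from abundant genes these were 0.11, 0.16, 0.23 and 0.24, and the median of all genes was 0.21 in LT-HSC and 0.23 between the KO populations. With library size only, Itga4 was -0.07 in MPP, and Cd44 and Itgb1 were 0.13 and 0.14 between the KO populations; with RLE size factors or DESeq2 they were 0.01 and 0.02. DESeq2 without MPP WT replicate 1 gave 0.29 for Cd44 and -0.05 for Itga4 in MPP. With no filter Itgb1 was -0.02 between the WT populations. Without 1 library, Cd44 ran from -1.48 to 0.45 in LT-HSC, -0.40 to 0.29 in MPP, -1.37 to 0.51 in the interaction, -0.48 to 1.14 between the WT and -0.88 to 0.52 between the KO populations. Itga4 ran from -0.05 to 0.05 in MPP, and Itgb1 from -0.04 to 0.06 between the WT and -0.04 to 0.07 between the KO populations. The causes were not tested.

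Ccr2 in LT-HSC had 20 counts in LT-HSC KO against 1 in LT-HSC WT, and background reads came to 37.2% and 39.8% of the KO counts. Genes of 10 to 30 kb that were silent in MPP WT had a median of 15 counts in LT-HSC KO against 1 in LT-HSC WT. Ccr2 passed with no filter (4.01, edgeR adjusted p = 0.0379) and with all 8 libraries in one fit (4.12, 0.0023). Its log2 fold change was 6.33 without LT-HSC WT replicate 1 and 3.15 without LT-HSC WT replicate 2. The part of depth or background in these values was not tested. With 2 libraries a group and 1 left out, the lone library is assumed to vary like the others.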

Other observations

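Ccr2 lies in a cluster of chemokine receptor genes on chromosome 9, and some of its neighbours within 300 kb are given here for MPP; they were looked at after the values were seen. Ccr1, which starts at -140 kb from the start of Ccr2, had a log2 fold change of -2.55 (SE 0.21, edgeR adjusted p = 0.00727). Ccr3, between Ccr1 and Ccr2, had 1.36 and 1.69 CPM in MPP KO against 0.671 and 1.25 CPM in MPP WT (0.74, SE 0.41, adjusted p = 0.326). Xcr1 (-1.31, SE 0.35, edgeR adjusted p = 0.0923) and Gm4694 (-0.42, SE 0.17, adjusted p = 0.205) did not pass. Without either MPP WT library, edgeR called none of these genes. Itgb2, in turn, lies on the same chromosome as Tet1, 14.6 Mb away.

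The genes whose level ran most like Cd44 over the 8 libraries, chosen after its split between libraries 1 and 2 was seen, were Pomp (r = 0.981), Gm3222 (r = 0.98), Gm12420 (r = 0.978), Srp54b (r = 0.976) and Ppib (r = 0.976). They are given as values only.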
